A study of Mus musculus with 8 samples.

Results

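The conjugation enzymes described here are the glutathione S-transferases (GST), the microsomal glutathione S-transferases (MGST), the UDP-glucuronosyltransferases of families 1 and 2 (UGT) and the sulfotransferases (SULT). The members are every gene whose array name begins with the symbol of a cytosolic or kappa Gst, an Mgst, a Ugt1, a Ugt2 or a Sult. This rule reads names only, but the members and the lists below were chosen with earlier results of these data known. This gave 52 of the 30214 gene names on the array, with 77 probes: 20 GST, 3 MGST, 12 UGT and 17 SULT genes. Of the 52 genes, 37 were well above background on at least 4 of the 8 arrays and were tested, and 15 were not.

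RNA was measured on 8 single-colour Agilent arrays, 1 per mouse, from the lower crypts of the jejunum, taken from fixed tissue by laser capture microdissection. This lower end of the intestinal gland holds stem cells and Paneth cells. Of the 8 mice, 4 had been fasted for 24 h and 4 had been fed. All of them carried the Lgr5EGFP-IRES-CreERT2/+ reporter allele, were 4 to 6 weeks old and were injected in the tail vein with etoposide, a poison of topoisomerase II, at 80 mg/kg. All had moistened food after the injection and were sampled 3 h after it. The labels give 2 males and 2 females in each group. Because the fasted mice were offered food again before sampling, fasting and the food after it cannot be told apart, and etoposide was given to every mouse measured.

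Conjugation enzymes join a polar group to drugs, plant compounds, steroids and reactive products of metabolism so that they dissolve in water and can be exported. Glutathione S-transferases take glutathione, UDP-glucuronosyltransferases take glucuronic acid from UDP-glucuronic acid, and sulfotransferases take sulfate from PAPS, the activated sulfate donor. In the small intestine these enzymes meet compounds taken up from food and, in absorptive cells, belong to the barrier against them. In humans UGT1A1 glucuronidates etoposide. The mouse gene Ugt1a1 was not among the members by name. Probes in exons shared by the Ugt1a genes, described below, may read it as well.

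Probes well above background made up 53.6% to 65.6% on the fasted arrays and 53.2% to 62.8% on the fed arrays. Fasted replicate 3 had the lowest share of the fasted arrays, lay alone on its slide and was the 1 array of a later scan day. The array labelled female as fed replicate 4 lacked Xist, the RNA of X inactivation (-6.01, not well above background, where the other female-labelled arrays had 2.43 to 3.33), and held the Y-linked Eif2s3y above background at -1.39. Its transcripts thus contradict its sex label. Fed replicate 1, labelled male, had neither Xist (-4.93) nor Eif2s3y (-2.84) well above background, so these flags do not settle its label. The stem cell marker Lgr5 stayed at background on all 8 arrays. Counts over the members and lists without fasted replicate 3 and fed replicate 4 are given after the main ones. Levels below are log2 signals relative to the 75th percentile of their own array. The level of 1 probe is not set against that of another, since probes differ in brightness. In a bulk capture, fewer cells of a type and less RNA per cell cannot be told apart.

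The probes of 3 genes whose fasted arrays all lay above their fed arrays are shown because family members have like sequences, and a probe reads 1 gene only as far as its letters are its own. Each is 60 bases long, written 5′ to 3′ as deposited, and the capitals mark the longest run shared with the probe of another conjugation gene. That run is 12 bases with Mgst1 for Gstm1 (chr3:107815595-107815654, minus strand, mm9), 12 bases with Sult5a1 for Gstm4 (chr3:107846495-107846847, minus strand, mm9) and 8 bases with Sult3a1 for Sult2b1 (chr7:52985450-52985509, minus strand, mm9). Over the 55 member probes that passed the filter, the longest shared run had a median of 9 bases and a maximum of 18. Only probes were compared with each other, and they may lie at different places in their transcripts. Whole transcripts were not compared, so a short run does not show that a probe reads its own gene only.
Gstm1: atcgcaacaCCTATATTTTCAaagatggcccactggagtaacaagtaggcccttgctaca
Gstm4: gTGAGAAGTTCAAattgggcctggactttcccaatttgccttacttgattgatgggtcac
Sult2b1: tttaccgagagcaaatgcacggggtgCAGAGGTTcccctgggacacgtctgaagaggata

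The comparison asked which conjugation enzymes differed between lower crypts of fasted and fed mice after etoposide. In these arrays the fasted means were above the fed means for 3 of 3 microsomal, 3 of 3 alpha class and 4 of 7 mu class glutathione transferases, 6 of 8 UGT and 5 of 7 SULT genes, while both pi class transferases differed by less than their standard errors. No member passed limma's test with Benjamini-Hochberg adjustment over the 19485 genes tested (0 of 37, background 0%), and the smallest adjusted p of any member was 0.788. Of the 37 tested members, 27 were higher in fasted crypts and 10 lower, against 44.5% of all genes higher. The median log2 difference, fasted minus fed, was 0.43 over these members and -0.06 over all genes, and the members ran from -1.12 to 2.10. An unadjusted p under 0.05 in limma's test was found for 12 members on the fasted side (background 3.93%) and 0 on the fed side (background 2.02%), with a background of 5.95% for both sides together. In 7 members all 4 fasted arrays lay above all 4 fed arrays (background 2.97%), and in 1 all lay below (background 1.96%, or 4.93% for both directions). The 12 became 5 without fasted replicate 1 (2.45% of all genes in either direction), 6 without fasted replicate 2 (5.44%) and 7 without fed replicate 2 (5.13%). Without both fasted replicate 3 and fed replicate 4, 27 members were higher, against 49.6% of all genes, the median was 0.44 and 16 had an unadjusted p under 0.05, against 8.97% of all genes. In that setting of 3 against 3 arrays, 14 members did not overlap on the fasted side (6.58% of all genes) and 2 on the fed side (9.19%). The class medians without these arrays were 0.08 for GST, 0.68 for MGST, 0.76 for UGT and 0.44 for SULT, against 0.21, 0.75, 0.61 and 0.40 with them. The 37 members are not all 52: 4 of them passed the filter with more fasted than fed arrays above background and 3 with more fed than fasted, so these counts describe genes that were measurable in one group or both.

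**Figure D1:**
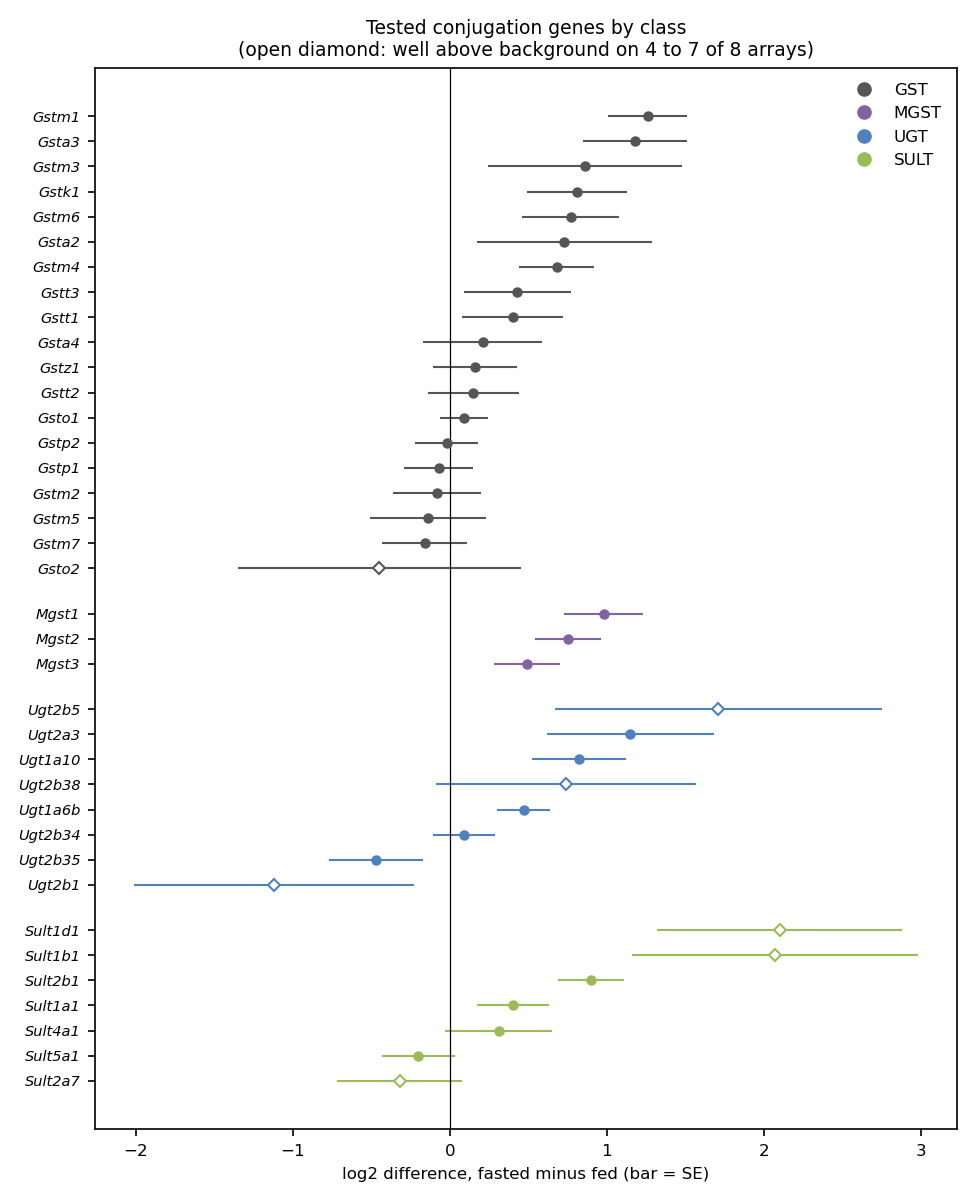
Log2 difference, fasted minus fed, of the 37 tested conjugation genes by class, with the standard error of limma's fit as bars; filled circles were well above background on all 8 arrays and open diamonds on 4 to 7. The 3 MGST genes lie between 0.49 and 0.98, and the 2 pi class genes, Gstp1 and Gstp2, lie at -0.07 and -0.02.

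The mu class transferases, which conjugate glutathione to epoxides and other electrophiles, lie side by side on chromosome 3. Gstm1 was at 2.73, 2.70, 1.34 and 1.38 in fasted crypts, against 1.12, 0.78, 0.74 and 0.45 in fed crypts. All fasted arrays lay above all fed arrays, and fasted replicates 1 and 2 stood above fasted replicates 3 and 4. Gstm1 averaged 2.04 ± 0.79 in fasted mice and 0.77 ± 0.28 in fed mice (SD, n = 4 each), a log2 difference of 1.26 (SE 0.25) or 2.40-fold, with an adjusted p of 0.788 in limma's test. The SE comes from a fit on labelled sex, which the transcripts of fed replicate 4 contradict, and it was 0.37 without the sex term. The difference lay between 1.1 and 1.5 under the 22 other settings run, the mean of both Gstm1 probes among them. A second Gstm1 probe, placed by the files on chr5:117082490-117082549 (mm9), gave 0.94, with overlapping groups. The RefSeq genes of GRCm38.p6 include 1 Gstm pseudogene on chromosome 5, and whether this probe reads it was not checked. Gstm4 was at 1.01, 0.52, 0.11 and 0.11 in fasted crypts and at -0.39, -0.08, -0.24 and -0.26 in fed crypts, again without overlap, a difference of 0.68 (SE 0.24). Its other probe, at chr3:107843802-107843861 (mm9), differed by -0.45.

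Gstm6 had a difference of 0.77 (SE 0.31), with values of 1.92, 1.34, 0.49 and 0.77 in fasted and 0.83, -0.06, 0.42 and 0.25 in fed crypts. The groups overlapped, since fed replicate 1 lay above fasted replicates 3 and 4. Its 3 other passing probes gave 0.58, 1.05 and 2.93, the last from a probe well above background on only 1 fed array, so its size is set against background signal. The difference was 0.50 without fed replicate 2. Gstm3, named after its values were seen, was at 3.08, 3.26, 0.09 and 1.46 in fasted crypts, against 1.33, 0.38, 1.66 and 1.1 in fed crypts, a difference of 0.86 (SE 0.62). Fasted replicate 3 was the lowest of its 8 arrays and fasted replicates 1 and 2 the highest, and its difference was 1.42 without fasted replicate 3, 0.53 without fasted replicate 2 and 0.37 without fed replicate 2. The mu class neighbours Gstm2, Gstm5 and Gstm7 differed by -0.08, -0.14 and -0.16, each by less than its standard error.

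The members whose 8 within-group deviations were most like those of Gstm1 were Gstk1 (Pearson r of 0.89 over 8 arrays), Ugt2b34 (0.87) and Gstm6 (0.86). These correlations describe arrays that share slides and signal level, and Ugt2b34 itself differed by only 0.09 (SE 0.20) between feeding states.

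**Figure D2:**
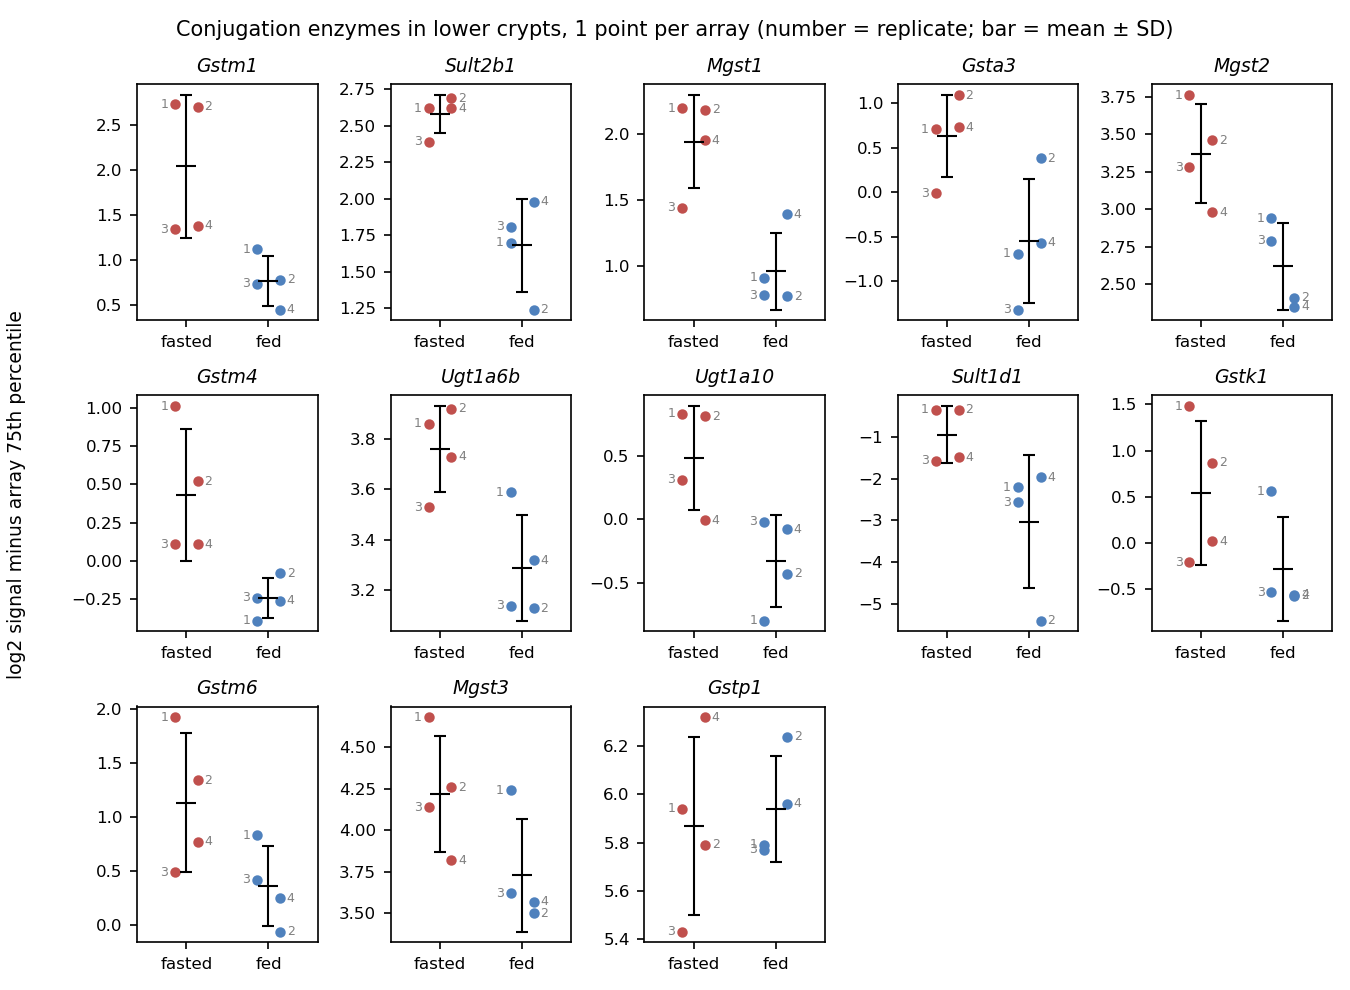
Level on each array (log2 signal minus the 75th percentile of the array) of the 13 members named by rule, with fasted arrays left and fed arrays right, the replicate number beside each point and bars at the mean ± SD of 4 arrays. Gstm1, Sult2b1, Mgst1, Mgst2, Gstm4, Ugt1a10 and Sult1d1 show no overlap between the groups, and Gstp1 shows fasted and fed arrays mixed between 5.43 and 6.32.

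Among the alpha class, which act on lipid peroxidation products and other electrophiles, Gsta3, the mouse enzyme known for conjugating the epoxide of aflatoxin B1, had the largest difference. Gsta3 was at 0.71, 1.09, -0.01 and 0.73 in fasted crypts and at -0.69, 0.38, -1.32 and -0.57 in fed crypts. Fed replicate 2 lay above fasted replicate 3, so the groups overlapped, and the difference was 1.18 (SE 0.33, 2.26-fold). Its second probe gave 0.79. Gsta2 and Gsta4 differed by 0.73 (SE 0.56) and 0.21 (SE 0.38). Gstk1, the kappa class enzyme of mitochondria and peroxisomes, was at 1.48, 0.87, -0.21 and 0.02 in fasted crypts, against 0.56, -0.57, -0.53 and -0.56 in fed crypts. Fed replicate 1 stood well above the other fed arrays, and the difference was 0.81 (SE 0.32, or 0.42 without the sex term), or 0.52 without fed replicate 2.

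The pi class transferase Gstp1, known for binding stress kinases besides its catalytic role, had the brightest probe of the GST genes. It was at 5.94, 5.79, 5.43 and 6.32 in fasted and 5.79, 6.24, 5.77 and 5.96 in fed crypts, a difference of -0.07 (SE 0.22, adjusted p = 0.941 in limma's test). The highest and the lowest of the 8 arrays were both fasted arrays. Its sign turned under 10 of its alternatives, with values from -0.26 to 0.28, so no direction is given. Gstp2 differed by -0.02 (SE 0.20). Gsto1, the omega class reductase of dehydroascorbate, differed by 0.09 (SE 0.15), Gstz1, the zeta class isomerase of tyrosine breakdown, by 0.16 (SE 0.27), and the 3 tested theta class genes Gstt1, Gstt2 and Gstt3 by 0.40 (SE 0.32), 0.15 (SE 0.29) and 0.43 (SE 0.34). Gsto2, above background on 2 fasted and 3 fed arrays, differed by -0.45 (SE 0.90).

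All 3 microsomal transferases, which sit in membranes of the endoplasmic reticulum and the mitochondria, lay higher in fasted crypts. Mgst1, the detoxifying member of the family, was at 2.19, 2.18, 1.44 and 1.95 in fasted crypts and at 0.91, 0.77, 0.78 and 1.39 in fed crypts. The lowest fasted array, replicate 3, stood just above the highest fed array, replicate 4, and the difference was 0.98 (SE 0.25, 1.97-fold). Mgst2, which can make leukotriene C4, was at 3.76, 3.46, 3.28 and 2.98 in fasted and 2.94, 2.41, 2.79 and 2.35 in fed crypts, also without overlap, a difference of 0.75 (SE 0.21). Mgst3, a transferase and lipid peroxidase, was at 4.68, 4.26, 4.14 and 3.82 in fasted crypts, against 4.24, 3.50, 3.62 and 3.57 in fed crypts. Here fed replicate 1 lay among the fasted arrays, and the difference was 0.49 (SE 0.21), or 0.32 without fed replicate 2. The adjusted p in limma's test was 0.788 for each of the 3 genes. The second probes of Mgst1 and Mgst3 gave 0.85 and 0.56.

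The Ugt1a genes of the mouse lie in 1 locus on chromosome 1, where alternative first exons are spliced to shared exons at the 3′ end. A probe in the shared exons cannot tell the genes apart, and one in a first exon can. In the RefSeq gene table of GRCm38.p6, which is not the build of the probe positions, 7 of 9 Ugt1a genes had the same end. The bright probe of Ugt1a6b, a gene of the phenol-conjugating subfamily, lies 111184 bases downstream of its other probe and 961 bases from the Ugt1a6a probe (mm9). Since only the first exon is a gene's own, a probe so far downstream is likely to lie in the shared exons. Exon positions in mm9 were not checked. The levels of this probe and of the Ugt1a6a probe may be those of the locus, Ugt1a1 included, and not of a single gene. The bright Ugt1a6b probe was at 3.86, 3.92, 3.53 and 3.73 in fasted crypts, against 3.59, 3.13, 3.14 and 3.32 in fed crypts. Its fed replicate 1 lay above fasted replicate 3. The difference was 0.47 (SE 0.17), and the upstream Ugt1a6b probe gave 0.61.

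The 3 upstream probes of Ugt1a10 and Ugt1a6b are printed because first exons tell the genes of the locus apart and because both probes of Ugt1a10 abut. Capitals mark the bases that are identical between the first Ugt1a10 probe and the Ugt1a6b probe, 32 of 54 aligned without gaps. They lie on the plus strand of mm9 at chr1:89952780-89952839, chr1:89952720-89952779 and chr1:90004249-90004308.
Ugt1a10, brighter probe: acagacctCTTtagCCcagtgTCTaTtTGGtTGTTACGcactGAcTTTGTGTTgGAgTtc
Ugt1a10, abutting probe: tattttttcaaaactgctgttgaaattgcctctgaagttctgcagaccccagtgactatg
Ugt1a6b, upstream probe: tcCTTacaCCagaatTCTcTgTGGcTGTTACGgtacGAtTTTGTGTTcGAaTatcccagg

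Ugt1a10, whose human counterpart is an extrahepatic enzyme of the gut, was at 0.83, 0.81, 0.31 and -0.01 in fasted crypts and at -0.80, -0.43, -0.02 and -0.08 in fed crypts with its brighter probe. The groups did not overlap, though fasted replicate 4 and fed replicate 3 lay next to each other. The difference was 0.82 (SE 0.30). The abutting probe, 0 bases away, was at -0.18, 0.16, -1.33 and -0.39 in fasted and -0.23, -0.96, 0.10 and -0.45 in fed crypts and gave -0.05, so the probes of this gene did not give the same answer.

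Family 2 enzymes conjugate steroids, bile acids and phenols, and their genes cluster on chromosome 5. Of the 6 tested, 4 were higher in fasted crypts and 2 lower, and 0 had an unadjusted p under 0.05 in limma's test. Ugt2a3, singled out after its values were seen, was at 1.65, 1.32, -0.98 and 0.46 in fasted and 0.18, -1.38, -0.60 and -0.34 in fed crypts. Fasted replicate 3 lay below 3 of the fed arrays, and the difference of 1.15 (SE 0.53) was 0.65 without fed replicate 2. Ugt2b35 was the 1 member whose fasted arrays all lay below the fed arrays, at -2.58, -2.44, -2.90 and -2.46 against -2.07, -1.78, -2.26 and -2.37, a difference of -0.47 (SE 0.30). Its other probe, which failed the filter with 2 fasted and 0 fed arrays above background, differed by 1.20. Ugt2b1 and Ugt2b5 had wide errors, at -1.12 (SE 0.89) and 1.71 (SE 1.04), and Ugt2b5 was detected on 3 of the fasted and 1 of the fed arrays.

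Among the sulfotransferases, Sult2b1, which sulfates cholesterol and related sterols, had the smallest p. It was at 2.62, 2.69, 2.39 and 2.62 in fasted crypts, against 1.70, 1.24, 1.81 and 1.98 in fed crypts. The lowest fasted array stood clear of the highest fed array, and the fasted SD was 0.13 against 0.32 in fed crypts. The difference was 0.90 (SE 0.21, 1.86-fold, adjusted p = 0.788 in limma's test), and it lay between 0.75 and 1.06 under every alternative run. Sult1d1, a sulfotransferase of catecholamines in the mouse, was at -0.35, -0.34, -1.57 and -1.48 in fasted and -2.21, -5.41, -2.56 and -1.96 in fed crypts. Fed replicate 2 was not well above background, and leaving it out brought the difference to 1.19, against 2.10 (SE 0.78) with all arrays. Sult1b1, a phenol and thyroid hormone sulfotransferase singled out after its values were seen, behaved alike in that array, with -5.59 in fed replicate 2 and a difference of 2.07 (SE 0.91), or 1.17 without it. Sult1a1, Sult4a1, Sult5a1 and Sult2a7 differed by 0.40 (SE 0.23), 0.31 (SE 0.34), -0.20 (SE 0.23) and -0.32 (SE 0.40).

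Of the 15 members that failed the filter, 9 were not well above background on any array with any probe. They were Gstt4, the hydroxysteroid sulfotransferases Sult2a1, Sult2a3 and Sult2a4, the oestrogen sulfotransferase Sult1e1, Sult1c2, Sult3a1, Ugt2a1 and Ugt2b37. The other 6 were above background on fasted arrays alone, with 0 fed arrays each: Sult1c1 and Sult6b1 on 1, Sult2a2 on 2, and Sult2a6, Ugt1a6a and Ugt2b36 on 3. Of all 10729 genes that failed the filter, 2646 were above background on some array, and of these 1284 (48.5%) were so on fasted arrays alone and 413 on fed arrays alone. These genes were not tested. For a cautious fold, any fed signal dimmer than the weakest one well above background on its array was raised to that level. The fold of fasted over fed was then 1.65 for Sult2a6, 1.38 for Ugt1a6a, 1.38 for Ugt2b36 and 1.02 for Sult2a2. The fasted means include arrays not well above background, with Ugt2b36 at -6.08 in fasted replicate 3, so these folds are not lower bounds. Between arrays that shared a slide, Sult2a2 differed by -0.17, -0.41 and 1.12. Sult2a6, Ugt1a6a and Ugt2b36 were higher in the fasted array of each such slide. The other Sult2a6 probes, not well above background on any array, differed by -0.32 and -0.25. The share of probes above background differed between the arrays, as given above, and its part in these counts was not tested.

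On 3 slides a fasted and a fed array lay side by side, and the differences within them show how far the values depend on the slide. Gstm1 differed by 1.61, 1.97 and 0.93 within the slides, Sult2b1 by 0.92, 0.88 and 0.64, and Mgst1 by 1.28, 1.40 and 0.56. Gsta3 differed by 1.40, 2.40 and 1.31 and Mgst2 by 0.81, 0.68 and 0.63. The slide of fasted replicate 4 and fed replicate 4, the array whose sex label is contradicted, gave the smallest of the 3 differences for each of these 5 genes. Ugt1a10 was close to 0 there, with 1.63, 0.83 and 0.07. Over all 37 tested members the within-slide medians were 0.44, 0.63 and 0.41. With slide as a fixed block 31 members were higher (46.6% of all genes) and 18 had an unadjusted p under 0.05 in limma's test, where 13.1% of all genes did. Of these 18, 17 were higher and 1, Ugt2b1, was lower (-0.63, SE 0.22), and of all genes 6.93% had such a p on the fasted side and 6.16% on the fed side.

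**Figure D3:**
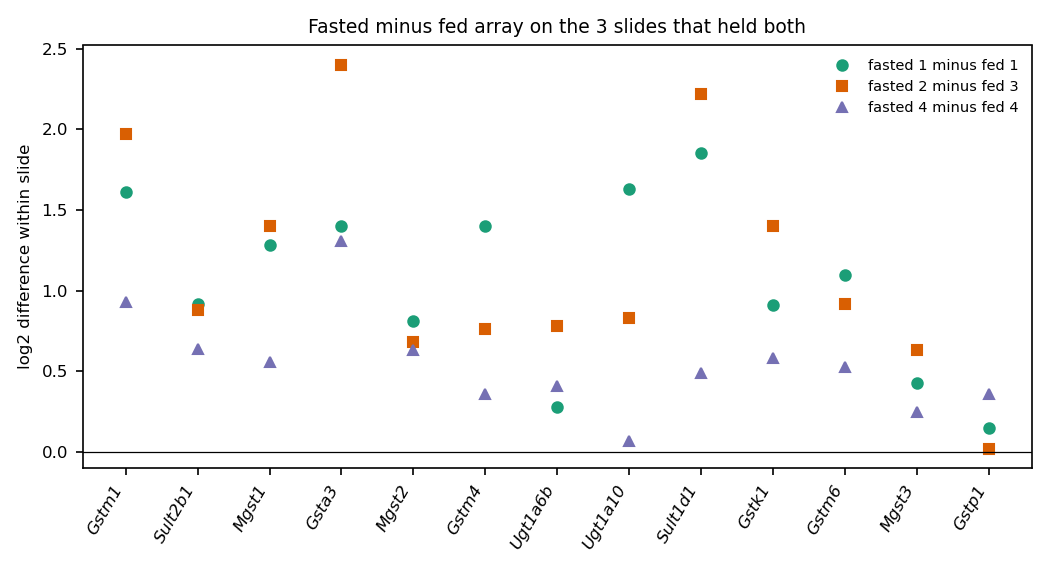
Log2 difference between the fasted and the fed array on each of the 3 slides that held both, for the 13 members named by rule. Every point lies above 0, Gstp1 included (0.15, 0.02 and 0.36), although its difference over all 8 arrays was -0.07; the 2 remaining arrays, fasted replicate 3 and fed replicate 2, are not shown because each was alone on its slide.

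More than 1 probe passed the filter for 15 of the members, which gives a second reading of the same arrays. In 11 of them all passing probes had the same sign, among them Gstm1, Gsta3, Mgst1, Mgst3, Gstm6, Gstm3 and Sult1a1. In 4 the signs differed: Gstm4, Gstp1, Sult4a1 and Ugt1a10. With the mean of the passing probes in place of the brightest probe, 27 members were higher (45.7% of all genes) and the median was 0.40. In that setting 8 had an unadjusted p under 0.05 in limma's test, against 6.28% of all genes.

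**Figure D4:**
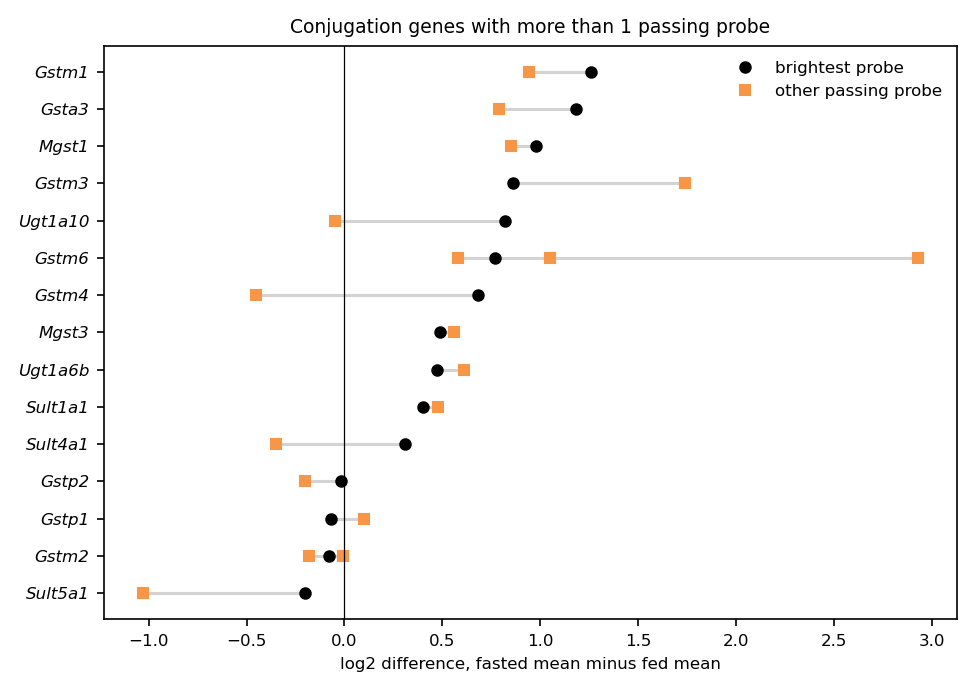
Log2 difference, fasted mean minus fed mean, of every passing probe of the 15 conjugation genes with more than 1, with the brightest probe as a black circle and the others as orange squares. The Gstm6 probes spread from 0.58 to 2.93, a value from a probe above background on 1 fed array, and the probes of Gstm4 lie on both sides of 0.

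The regulator NRF2 binds antioxidant response elements and the aryl hydrocarbon receptor binds xenobiotic response elements, and both kinds of site are known in genes of this group. The core letters TGACNNNGC and GCGTG were searched on both strands in RefSeq windows from 250 bases before to 50 bases after each gene start in GRCm38.p6, where 45 of the 52 members had at least 1 window. TGACNNNGC was in 4 of 56 member windows (7.14%), those of Gsta3, Gstm5, Gstm7 and Mgst1, against 12.4% of all 32851 windows. GCGTG was in 10 of 56 member windows (17.9%), of 8 genes that include Gstm1, Mgst3, Sult2b1 and Gstp1, against 32.4% of all windows. In Gstm5 a match of each motif overlapped the other. The 250 bases before the start of Gsta3 and of Mgst1, the members with such a match and a difference of about 1 or more, are printed with TGACNNNGC or its reverse complement in capitals, which begins at position -121 in Gsta3 and -56 in Mgst1, counted from the gene start. The other members with such a match, Gstm5 and Gstm7, differed by -0.14 and -0.16. A match is a string of letters and not a bound site. The windows are chr1:21240335-21240584 and chr6:138140277-138140526, both on the plus strand of GRCm38.p6, from RefSeq.
Gsta3: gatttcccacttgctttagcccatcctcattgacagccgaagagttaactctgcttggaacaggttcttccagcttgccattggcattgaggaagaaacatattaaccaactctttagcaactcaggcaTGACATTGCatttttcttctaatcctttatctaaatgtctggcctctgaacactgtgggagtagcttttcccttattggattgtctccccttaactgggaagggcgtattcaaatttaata
Mgst1: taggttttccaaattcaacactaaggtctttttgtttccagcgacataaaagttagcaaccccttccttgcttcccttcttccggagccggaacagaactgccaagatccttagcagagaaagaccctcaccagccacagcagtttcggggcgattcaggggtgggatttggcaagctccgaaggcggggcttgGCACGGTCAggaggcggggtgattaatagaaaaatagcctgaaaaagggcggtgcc

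The genes that feed, follow and control conjugation were described from lists, and none of their members passed limma's test over all genes either. Mercapturate processing, the trimming of glutathione conjugates by surface peptidases and their acetylation, lay highest: 9 of its 10 tested genes were higher, and the median was 0.74. Its gene with the smallest p, Anpep, aminopeptidase N of the brush border, was at 0.88, 0.96, -0.63 and 0.28 in fasted and -1.61, -2.08, -0.83 and -0.84 in fed crypts (difference 1.71, SE 0.45). Anpep also belongs to the enterocyte markers. Dpep1, a dipeptidase named after its values were seen, differed by 1.28 (SE 0.42). Genes that make and recycle glutathione had 3 of 8 higher and a median of -0.28, and Cbs, which starts the path from homocysteine to cysteine, differed by -0.58 (SE 0.28). Other glutathione-dependent enzymes had 4 of 10 higher and a median of -0.16, and Hagh, which releases glutathione at the end of methylglyoxal breakdown, differed by 0.77 (SE 0.27).

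Sulfate supply and removal had 8 of 12 genes higher and a median of 0.39. Bpnt1, which clears the by-product left when PAPS has given up its sulfate, was at 0.74, 0.39, -0.16 and -0.17 in fasted crypts, against -0.52, -1.34, -1.12 and -0.72 in fed crypts, without overlap (difference 1.13, SE 0.29). Papss2, which makes PAPS and was named after its values were seen, was at 4.36, 2.93, 2.09 and 2.02 in fasted and 1.77, 1.41, 1.5 and 1.64 in fed crypts (difference 1.27, SE 0.41). Glucuronide supply, removal and other UGT families had 3 of 7 higher and a median of -0.07, yet Ugdh, which makes UDP-glucuronic acid, differed by 0.87 (SE 0.27). Other conjugation enzymes had 4 of 7 higher and a median of 0.17, led by the methyltransferase Inmt at 1.26 (SE 0.50), which was detected on 4 of the fasted and 1 of the fed arrays. Its difference was 0.366 with normexp background correction and 2.076 in the authors' matrix. Of the 5 pumps that export conjugates 4 were higher, with a median of 0.41, and Abcc2, the apical pump for glutathione and glucuronide conjugates, differed by 1.14 (SE 0.33) without overlap. Of 13 regulators 9 were higher, with a median of 0.15, and Nfe2l2, which encodes NRF2, differed by 0.61 (SE 0.20), again without overlap. Over all genes tested the median was -0.06 and 44.5% were higher. Without fasted replicate 3 and fed replicate 4 the medians were 0.96 for mercapturate processing, 0.19 for sulfate supply, 0.42 for the pumps, 0.22 for regulators, -0.20 for glutathione supply and -0.22 for other glutathione-dependent enzymes. The sign turned for glucuronide supply, at 0.55, and for other conjugation enzymes, at -0.10.

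Markers of absorptive enterocytes, which mature above the crypt base and are known for conjugation enzymes, were described as well. Like the other lists, they were chosen with earlier results of these data known. All 24 tested of 25 listed enterocyte markers were higher in fasted crypts, against 44.5% of all genes. Their median difference was 1.02. In 11 of them all fasted arrays lay above all fed arrays, against 2.97% of all genes. Their mean level was 2.32, 2.46, 1.08 and 1.73 in fasted crypts, against 0.82, 0.13, 1.17 and 1.04 in fed crypts, and their summed level on the linear scale ran from 179.67 to 301.03 in fasted and from 105.32 to 156.19 in fed crypts. Fasted replicates 1 and 2 had the highest marker means and fed replicate 2 the lowest. Both of these fasted arrays lay above fasted replicates 3 and 4 in 19 of the 24 markers (79.2%). The same held for 20 of the 37 tested members (54.1%), against 10.6% of all genes, so not all members had this order. The reverse held for 0 markers, 1 member and 2473 of 19305 genes. The lowest array also differed between members. Sult1d1 and Sult1b1 were lowest in fed replicate 2, near background there, Gsta3 in fed replicate 3 (-1.32) and Gstm1 in fed replicate 4 (0.45). Within the slides the medians of the markers were 1.39, 1.25 and 0.60. Without fasted replicate 3 and fed replicate 4, 23 of the 24 were higher (49.6% of all genes), with a median of 1.28, and 19 did not overlap (6.58% of all genes). The part of enterocyte content in the conjugation values was not tested. Paneth cell markers, 7 tested of 10 listed, were all lower in fasted crypts (median -0.44), with a mean level of 5.11 to 5.63 in fasted and 5.69 to 5.90 in fed crypts and a summed level of 320.25 to 397.41 against 419.83 to 575.36. All 7 were also lower without those arrays (median -0.45).

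The remaining marker lists had medians of -0.02 for crypt base stem cells (10 tested genes), -0.15 for goblet cells, 0.40 for tuft cells, 0.17 for enteroendocrine cells, -0.08 for stroma and -0.29 for leukocytes. Of the stem cell genes 5 were higher and 5 lower. In 1 of them, Olfm4, named after its values were seen, all fasted arrays lay below all fed arrays (1.96% of all genes). It differed by -1.11 (SE 0.24). Liver cells, which are rich in these enzymes, and pancreatic acinar cells had 4 tested markers each, with medians of -0.25 and -0.49. Leaving out fasted replicate 3 and fed replicate 4 gave medians of -0.32 for crypt base stem cells, -0.14 for goblet, 0.27 for tuft and -0.36 for enteroendocrine cells, -0.41 for stroma, -0.05 for leukocytes, 0.20 for hepatocytes and -0.19 for acinar cells.

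**Figure D5:**
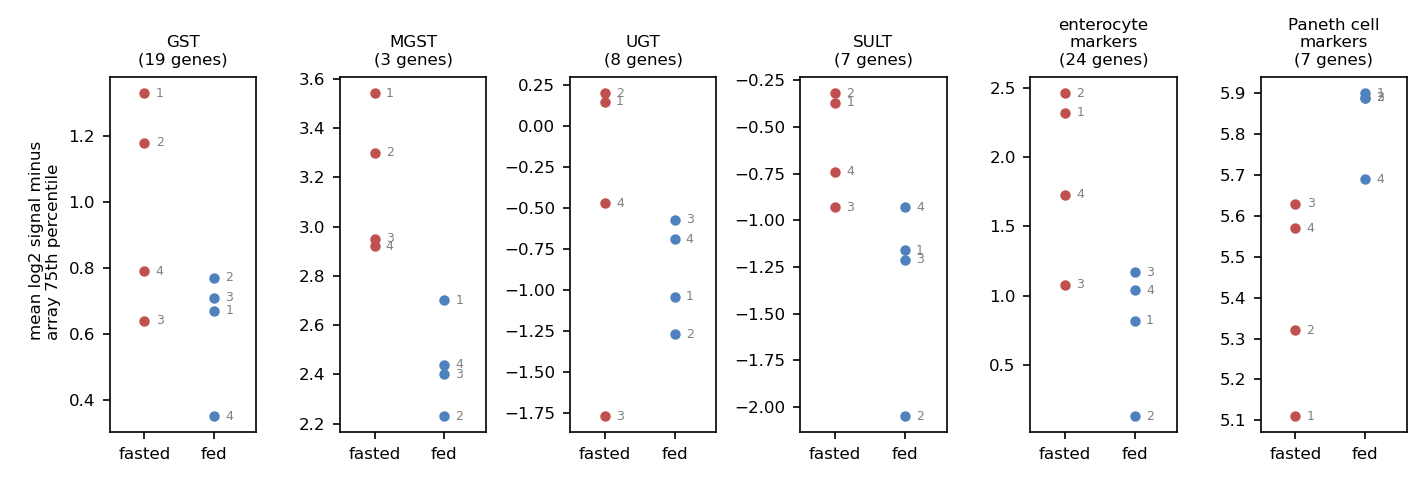
Mean level on each array (log2 signal minus the 75th percentile of the array) over the tested genes of each enzyme class and of the enterocyte and Paneth cell marker lists, with fasted arrays left, fed arrays right and the replicate number beside each point. The MGST means do not overlap between the groups (2.92 to 3.54 in fasted and 2.23 to 2.70 in fed crypts), the GST and UGT means do, and the enterocyte markers are highest in fasted replicates 1 and 2.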

How the data were processed

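The authors deposited spot intensity values, a red-channel (Cy5) signal that the software had corrected for background and detrended, per the file headers. The software was Agilent Feature Extraction 11.5.1.1. A matrix deposited by the authors gives log2 values for these arrays, ranked as the processed signal (Spearman at least 0.9999). Its column medians run from 7.73 to 8.33, and its scaling and centring stay unknown. Probe positions are in mm9, per the file headers.

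Control spots and flagged outliers (2 to 146 probes per array) were left out, spots of a probe were averaged, and the log2 processed signal minus the 75th percentile of each array was used. No probe was saturated. The filter asked for 4 or more of 8 arrays with the probe well above background, and each gene name of the files took its brightest probe. Of the 77 member probes, 73 had an accession in the RefSeq table, and 0 of these had another symbol there. All 19485 genes were fitted with limma 3.58.1 (lmFit, eBayes with a mean trend, R 4.3.3), on feeding group and labelled sex, with Benjamini-Hochberg adjustment at 0.05, and the fit was tested on simulated data. No array pair held identical values. The replicate numbers are shared between groups but do not pair mice: same-numbered arrays had correlations of deviations of 0.372, -0.47, -0.447 and 0.607. The first and the last of these pairs shared a slide, as did fasted replicate 2 and fed replicate 3 (0.536). With slide as a random block, the correlation within slides was 0.701. The main fit has no slide term, so its standard errors and p-values leave this dependence out. It takes fed replicate 4 as female, as labelled, although its transcripts contradict that label. Without the sex term 11 members had an unadjusted p under 0.05 in limma's test, against 6.74% of all genes. The number of arrays limits the precision.

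Members named by rule were Gstm1, the 12 tested members with the smallest p, the brightest of each class and the gene with the smallest p of each list. Sult1b1, Ugt2a3, Ugt2b35 and Gstm3 were added after their values were seen. So were Dpep1, Papss2 and Olfm4 of the lists, which were not followed under the alternatives below. Members and lists were chosen with earlier results of these data known. Alternatives were median and quantile scaling, the authors' matrix, normexp (offset 50), a filter on all 8 arrays or none, the mean of passing probes, a fit without sex, a slide or replicate block, no variance trend, an adjusted p of 0.1, and each array left out in turn. Dropping fasted replicate 3 with fed replicate 4, the share of probes above background as a covariate and each other probe were added after seeing the data.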

Additional observations from a re-analysis of the deposited data

Results flagged for a closer look

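Of 50 groups of 4 arrays looked at, over 25 named genes, 2 held an array whose gap to the nearest other, divided by the range of the group, exceeded Dixon's critical value, and chance flags about 1 in 20 groups. Gstk1 was at 0.56 in fed replicate 1, where the other fed arrays lay between -0.57 and -0.53 (ratio 0.962). Mgst3 was at 4.24 in fed replicate 1, where the other fed arrays lay between 3.50 and 3.62 (ratio 0.836). Both values lie within the range of the fasted arrays of the same gene.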

How the results depend on the processing

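Under all 23 alternatives 0 members and 0 genes passed limma's adjusted test, and the lowest adjusted p of any named member was 0.0655, for Gstm1, Sult2b1 and Mgst1, whose adjusted p ran up to 0.998. The count of tested members higher in fasted crypts ran from 25 to 29 when each array was left out and from 23 of 30 to 34 of 52 otherwise, and their median difference from 0.335 to 0.576 and from 0.305 to 0.482. Of all genes 38.7% to 49.6% were higher under these settings. The count with an unadjusted p under 0.05 in limma's test ran from 5 to 16 without 1 array. The 5 came without fasted replicate 1 (2.45% of all genes) and the 16 without fasted replicate 3 (8.55%). Otherwise it ran from 8 with the mean of passing probes (6.28%) to 18 with slide as a fixed block (13.1%). With the replicate block in place of the sex term, which pairs no mice, 27 members were higher (44.5% of all genes) and the median was 0.43. There 12 had an unadjusted p under 0.05 in limma's test (5.7% of all genes). Of the single genes 3 turned sign. Gstp1 was at 0.213 with quantile normalization, 0.278 with normexp, 0.153 in the authors' matrix, 0.013 with the mean of its probes, 0.177 and 0.072 with slide as a fixed and a random block, 0.091 without fasted replicate 3, 0.036 without fed replicate 2, 0.082 without fasted replicate 3 and fed replicate 4, and 0.096 with its other probe, and it ran from -0.263 to 0.091 when each array was left out. The other probes of Gstm4 and Ugt1a10 gave -0.454 and -0.052. The cause was not tested. With normexp, 6 other named genes moved towards 0 by over 1.5 times: Sult1d1 to 1.007, Sult1b1 to 1.108, Inmt to 0.366, Gstm4 to 0.377, Ugt2b35 to -0.219 and Cbs to -0.378. In the authors' matrix Sult1b1 and Inmt were at 3.139 and 2.076. Ugt2b35 was at -0.259 with slide as a fixed block, and Gstm3 at 0.423 with the share of probes above background as a covariate. With the mean of the passing probes Gstm3, Gstm6, Gstm4 and Ugt1a10 were at 1.297, 1.332, 0.111 and 0.382, and without fasted replicate 3 and fed replicate 4 Gstm3 and Ugt2a3 were at 1.478 and 1.744. With the share of probes above background as a covariate 29 members were higher (47.1% of all genes). There 15 had an unadjusted p under 0.05 in limma's test, where 28.2% of all genes did. Signal over background limits the 15 members that failed the filter, and 4 arrays per group limit the rest.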

Other observations

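Within the fasted group, fasted replicates 1 and 2, labelled male, both lay above fasted replicates 3 and 4, labelled female, in 20 of the 37 tested members (54.1%), against 10.6% of all genes and 19 of 24 enterocyte markers (79.2%). Within the fed group, fed replicates 1 and 2, labelled male, both lay above fed replicates 3 and 4 in 8 of 37 members (21.6%), 23.9% of all genes and 0 of 24 enterocyte markers. Fasted replicate 3 was alone on its slide and scan day, and fed replicate 4 contradicts its sex label, so labelled sex, slide and capture cannot be told apart in these counts.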
